A study of Mus musculus with 3 samples.

Results

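The 52 genes described here are G2/M and mitosis genes, taken by name from a fixed list, and all 52 were among the 33696 genes measured. That list and the groupings of it used below were chosen with earlier results of these data known. The genes were followed through 8 cell classes: CD8, CD4, Foxp3-positive and NK-receptor T cells, NK cells, macrophages, monocytes and tumor cells. The measurements came from single-cell RNA sequencing (10x, 3 prime end counting) of live CD45+ cells sorted from subcutaneous tumors of KP1, a murine Rb/p53 mutant line of small-cell lung cancer. Wild-type F1 mice (B6129SF1/J) were inoculated with 500000 KP1 cells, were dosed with 3 µg of cytokine on alternate days between day 7 and day 19, and were sacrificed at the end of dosing. The mono-IL-10 group (Supermono-10 in the labels) received a monomeric form of IL-10, the IL-10/2-Trikine group received a fusion that engages IL-10 and IL-2 receptor chains, and the combination group received that fusion together with anti-PD-1 antibody, 200 µg a dose, on day 7 and then on day 11, day 15 and day 19. The sample labels name anti-PD-1 for the combination only, although the shared protocol text could be read as giving it to all. Each group was 1 library, the number of mice behind each was not given in the sources used here, and no untreated library was analysed here, so that treatment, mouse and library cannot be told apart and no test between groups was possible. The 2 comparisons, IL-10/2-Trikine against mono-IL-10 and combination against IL-10/2-Trikine, share the IL-10/2-Trikine library.

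Cells that leave S phase with replicated chromosomes build up the kinase CDK1 and its cyclin B partners, enter mitosis, attach each chromosome pair to a spindle through kinetochores, and separate them when the ubiquitin ligase APC/C destroys cyclin B and securin. The transcripts of most proteins in this sequence accumulate together from late S phase to mitosis and are low in resting cells. Their summed level depends on how many cells are dividing and on how much each cell carries. The DREAM and MYB-MuvB complexes act on many of these genes through a promoter element known as the CHR, while the nearby CCAAT boxes are bound by NF-Y. In T and NK cells division follows antigen and cytokine signals such as IL-2.

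RefSeq promoter sequence (assembly GRCm38.p6, 250 bases before to 50 bases after each start) was given for 44 of the 52 genes in 49 windows. The CHR letters TTTGAA or TTCGAA, searched on both strands, occurred in 36 of these 49 windows (73.5%), against 19.2% of all 32851 promoter windows of that length. CCAAT (searched the same way, and able to share 1 letter with a CHR match) occurred in 39 windows (79.6%), against 37.4% of all. Both were found in 31 windows (63.3%), against 7.52% of all. A list of S phase genes, 36 windows, held the CHR letters in 19.4% and CCAAT in 66.7%. For the CHR letters the S phase value was thus close to that of all promoters, and for CCAAT it was closer to that of the G2/M genes. The other 53 division genes, in 49 windows, held the CHR letters in 63.3%, CCAAT in 65.3% and both in 46.9%, so the CHR letters were frequent in division genes beyond the members. A match is a description of the letters and not a measured binding site. The 120 bases before the start are shown for 6 members with a match close to the start and for Lbr and Jpt1, members that differed little between the libraries. They are Cdk1 (chr10:69352913-69353032, minus strand), Cdc20 (chr4:118437344-118437463, minus strand), Ube2c (chr2:164769809-164769928, plus strand), Cks1b (chr3:89418292-89418411, minus strand), Kif11 (chr19:37376262-37376381, plus strand), Hmgb2 (chr8:57511723-57511842, plus strand), Lbr (chr1:181842402-181842521, minus strand) and Jpt1 (chr11:115514394-115514513, minus strand). Each reads 5′ to 3′ in the direction of the gene and ends 1 base before the start, with CHR and CCAAT letters of either strand in capitals (TTCAAA and ATTGG are the reversed forms).
Cdk1: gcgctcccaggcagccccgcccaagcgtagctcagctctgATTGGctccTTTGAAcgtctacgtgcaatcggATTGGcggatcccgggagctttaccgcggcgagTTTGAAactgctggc
Cdc20: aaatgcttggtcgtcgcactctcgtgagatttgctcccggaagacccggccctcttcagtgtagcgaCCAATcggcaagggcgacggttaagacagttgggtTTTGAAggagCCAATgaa
Ube2c: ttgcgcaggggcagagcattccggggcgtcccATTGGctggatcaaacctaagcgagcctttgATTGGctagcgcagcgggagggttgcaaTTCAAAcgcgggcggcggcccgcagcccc
Cks1b: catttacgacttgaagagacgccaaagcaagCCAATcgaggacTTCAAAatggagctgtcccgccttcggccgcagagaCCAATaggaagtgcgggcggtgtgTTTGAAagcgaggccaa
Kif11: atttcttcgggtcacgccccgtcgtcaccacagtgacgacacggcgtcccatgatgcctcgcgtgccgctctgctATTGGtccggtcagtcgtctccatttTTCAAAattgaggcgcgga
Hmgb2: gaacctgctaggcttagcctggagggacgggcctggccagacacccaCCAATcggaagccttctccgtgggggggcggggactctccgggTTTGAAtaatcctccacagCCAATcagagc
Lbr: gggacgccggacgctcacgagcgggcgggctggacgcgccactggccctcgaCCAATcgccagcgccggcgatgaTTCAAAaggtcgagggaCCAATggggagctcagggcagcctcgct
Jpt1: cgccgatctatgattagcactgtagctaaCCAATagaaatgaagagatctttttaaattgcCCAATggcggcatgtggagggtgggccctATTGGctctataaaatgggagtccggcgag
In Cdk1, the catalytic kinase, 1 CHR match began 15 bases before the start and a second one 71 bases before it. Lbr held a match 45 bases before the start, and Jpt1 held CCAAT letters only. Of the genes restricted to division 27 of 33 with a window held the CHR letters, and of the members that cells also use outside division 7 of 11.

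The 3 libraries held 158570946 to 197176873 UMIs, counts of unique molecules, and 22235 to 26967 barcodes were kept as cells, with medians of 4273 to 5562 UMIs. T and NK cells were separated by UMIs of their defining genes. CD8 T cells carried Cd8a or Cd8b1, CD4 T cells Cd4 and Foxp3-positive cells Foxp3. NK-receptor T cells carried a Cd3 chain with Ncr1 or Klrb1c, and no Foxp3. NK cells carried Ncr1 or Klrb1c without Cd3, Cd4, Cd8b1 or Foxp3. CD8 and CD4 T cells held none of each other's genes and no Foxp3, Ncr1 or Klrb1c. In the order mono-IL-10, IL-10/2-Trikine and combination, which is used for every run of 3 values below, the classes held 4282, 4589 and 4305 CD8 T cells, 1551, 2097 and 3349 CD4 T cells, 409, 1241 and 1194 Foxp3-positive cells, 535, 2430 and 1715 NK-receptor T cells, 579, 999 and 1271 NK cells, 4418, 2062 and 5152 macrophages, 2080, 1914 and 1886 monocytes and 802, 1004 and 964 tumor cells that had passed the CD45 sort. The labels called the samples T cells, while clusters of macrophages, monocytes and tumor cells were named from marker lists that include C1qa, Chil3 and neuroendocrine genes such as Chga. The macrophages included the shallow cluster 14, with 520, 396 and 1257 cells. Its median was 415 UMIs, and 34.5% of its cells held a C1qa UMI. Per 1000000 UMIs of the class (CPM), Chga stood at 261, 277 and 286 in tumor cells, against at most 3.77 in any other class. Listed division genes were left out of the clustering, although a T cell cluster (cluster 8) with Rrm2 and Pclaf, genes of DNA synthesis, among its top 10 genes still formed. Histone genes stood above them in that list, and 88.6% of the cells of cluster 8 held a Mki67 UMI. Cluster 8 was the second largest source of CD8 T cells in the IL-10/2-Trikine library (29.7%), where another cluster held that place in the others. Pairs of libraries shared 137 to 180 kept barcodes, under 1% of each. Scrublet called 14.4%, 16.8% and 4.09% of cells as doublets, so the share called was itself uneven, and a cluster with UMIs of both C1qa and Cd3e in most cells was left out of the macrophages.

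All 52 genes were detected in all 8 classes of all 3 libraries. The level in a class is given in CPM, the UMIs of a gene per 1000000 UMIs of that class, not divided by gene length, so levels are compared between libraries or classes only for the same gene or the same sum. Summed over the 52 genes, the level in CD8 T cells was 6779, 11886 and 7815. It was 5270, 11377 and 8257 in CD4 T cells and 5719, 11626 and 6924 in NK-receptor T cells. In these 3 classes the IL-10/2-Trikine library was the highest and mono-IL-10 the lowest, and the combination lay between them. Foxp3-positive cells started higher, at 8585, 11279 and 8949, and NK cells lower, at 2950, 6439 and 3983. Macrophages (3964, 4855 and 4220) and tumor cells (10344, 11391 and 9560) differed less between the libraries, and tumor cells had the highest level of any class in the mono-IL-10 and combination libraries. Monocytes were the lowest class, at 1350, 1573 and 1254. Droplets with 10 to 100 UMIs, which hold free RNA rather than cells, stood at 5576, 9087 and 6082, above the NK cell, macrophage, monocyte and neutrophil values of the same library and, under mono-IL-10, above CD4 T cells, and followed the same order as the T cells. Free RNA therefore moved with the cells, and its part in these levels was not tested. In bulk sums such as these, more dividing cells and more of these transcripts per cell cannot be told apart, and the counts of cells given further below, which use the same genes, do not separate them. Hmgb2, a DNA-bending chromatin protein, made up 27.6, 29.2 and 30.3% of the members' UMIs in CD8 T cells and 16.1, 17.9 and 18.0% in tumor cells, so medians over the genes are used beside the sums.

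**Figure D1:**
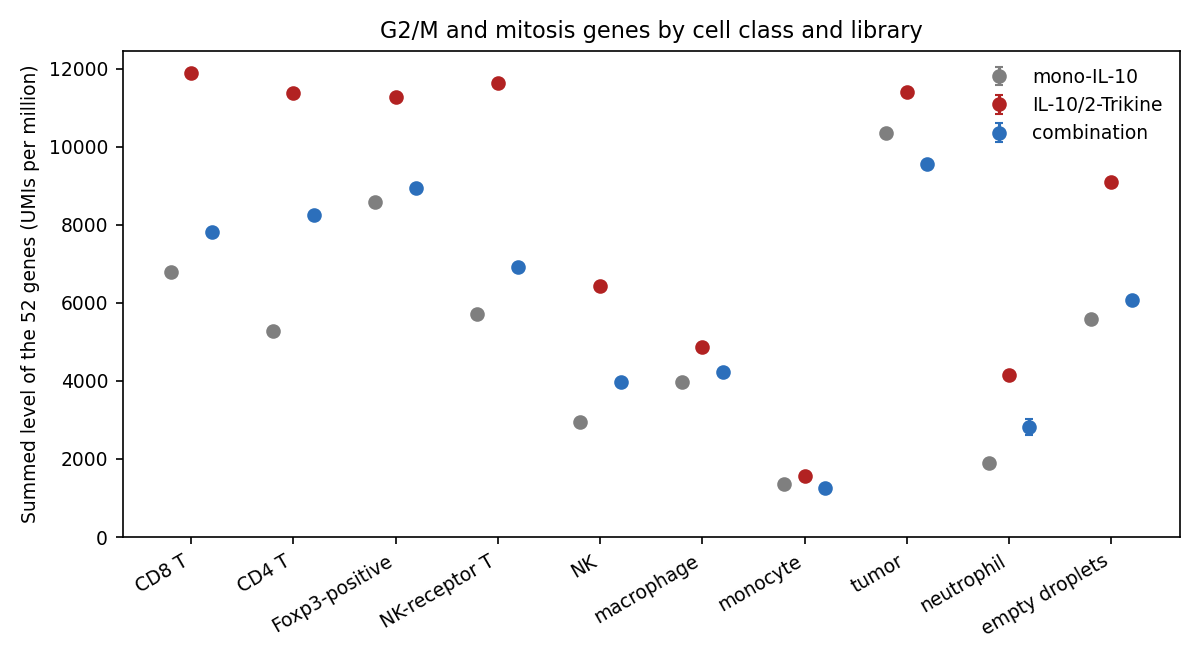
Summed level of the 52 genes in CPM (vertical axis, from 0) in each cell class, in neutrophils and in empty droplets, 1 point per library with its exact Poisson interval, which covers counting error only and is mostly smaller than the point. The IL-10/2-Trikine point lay highest in every class, far above the others in CD4 T cells (5270, 11377 and 8257) and closer to them in tumor cells (10344, 11391 and 9560).

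The first comparison addressed what differed when the IL-2 receptor arm was added to IL-10. In CD8 T cells 45 of the 52 genes were at least 1.5-fold higher with the IL-10/2-Trikine than with mono-IL-10 and none was 1.5-fold lower, where 8.69% of 13659 genes with 20 or more UMIs were that much higher. The median log2 ratio of the members was 0.85, beside -0.14 for all genes. In CD4 T cells 48 of 52 were higher by that much (background 12.3%), with a median of 1.18. NK-receptor T cells gave 48 of 52 (background 11.1%) and a median of 1.15. The clusters behind these classes differed between libraries, beside the shift in CD8 T cells given above. Cluster 2, where 50.5% of cells held a Mki67 UMI, supplied 24.9, 59.9 and 42.2% of CD4 T cells, and cluster 5, with 28.3%, supplied 29.1, 14.6 and 35.2%. For NK-receptor T cells cluster 3 (43.6% with Mki67) supplied 33.3, 66.5 and 37.8% and cluster 6 (14.2%) supplied 39.8, 19.5 and 43.1%. Trdc, Trgv1, Trgc1 and Trgc4, gamma-delta T cell receptor genes, were among the top 10 genes of cluster 3, and their cells were not separated. Called doublets made up 14.6, 17.0 and 2.33% of NK-receptor T cells. Every one of the 52 genes was above the mono-IL-10 level in each of these 3 classes. The CD8 count depended on which clusters were taken as T cells, a choice made after the clusters were seen: under the naming rule as first written, with 3 clusters left unnamed because a gene of another marker list (Ly6c2, Il1rl1 or Ccr7) was among their top 10 it was 10, and the median 0.47. The share of all genes past 1.5-fold was not computed for any alternative setting, here or below. Counts under those settings were therefore not read against a background. Macrophage markers in CD8 T cells summed to 109, 43.6 and 91.5 CPM with 11 to 12 of 12 markers at 3 or more UMIs, against 13710, 11487 and 13307 in macrophages, and were lowest in the IL-10/2-Trikine library.

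Most genes of the CDK1 engine were higher, with 4 of 5 genes at least 1.5-fold higher in CD8 T cells, 5 of 5 in CD4 T cells and 5 of 5 in NK-receptor T cells. Cdk1, the kinase that drives entry into mitosis, stood at 85.2, 170.3 and 107 CPM in CD8 T cells, a ratio of 2.00 (counting interval 1.90 to 2.10) for the first comparison. In CD4 T cells it was 70.0, 182 and 133, a ratio of 2.60 (counting interval 2.38 to 2.84). Ccnb2, one of its cyclins, was 118, 228 and 137 in CD8 T cells. Among the mitotic kinases all 6 were called in each of the 3 classes. Plk1, which acts at centrosomes and kinetochores, was 36.3, 68.3 and 34.9 in CD8 and 22.2, 70.5 and 37.6 in CD4 T cells, so that its CD4 ratio was 3.18 (counting interval 2.72 to 3.73). Aurka, the spindle pole kinase, had the highest log2 ratio of all members in CD4 T cells, 1.82, from levels of 13.7, 48.3 and 27.5. Birc5 (survivin), the partner of Aurora B in the chromosomal passenger complex, was among the 3 highest members in CD8 T cells at 169.7, 398 and 223, a ratio of 2.35 (counting interval 2.27 to 2.43).

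Cdc20, which activates the APC/C, was 58.2, 103 and 59.8 CPM in CD8 T cells, 38.2, 101 and 66.6 in CD4 T cells and 44.1, 98.1 and 49.0 in NK-receptor T cells, and Ube2c, its ubiquitin-conjugating enzyme, was 234, 384 and 256 in CD8 T cells. Both followed the order of the summed level in these classes. Among kinetochore and centromere genes 5 of 6 were called in CD8 T cells and 6 of 6 in CD4 T cells, with Cenpe, the kinetochore kinesin, at 63.5, 165 and 114 in the latter. The spindle group gave 10 of 12 called in CD8 T cells, where Nusap1, which bundles spindle microtubules, stood at 84.2, 199.6 and 109. The 4 motors were called in 4 of 4 cases in CD8 T cells, with Kif11, the kinesin that pushes spindle poles apart, at 96.2, 160.4 and 102. Of the cytokinesis genes, 2 of 3 were called in CD8 T cells. Anln, which anchors the contractile ring, was 12.9, 36.2 and 16.5 in NK-receptor T cells, a ratio of 2.80 (counting interval 2.08 to 3.84).

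Chromosome structure genes spanned the range of the members. Esco2, the acetyltransferase that locks cohesin onto replicated DNA, was the highest member in CD8 T cells at 29.7, 71.8 and 36.5 CPM, a ratio of 2.42 (counting interval 2.23 to 2.62), and was among the 3 highest in CD4 and NK-receptor T cells. Smc4, a core subunit of condensin, was 418, 488 and 377 in CD8 T cells, a ratio of 1.17 (counting interval 1.14 to 1.20), and was among the 3 lowest in all 3 classes. Top2a, the topoisomerase that untangles sister chromatids, was 413, 757 and 468, and Mki67, the Ki-67 protein that coats mitotic chromosomes, 346, 599 and 351. In CD4 T cells Mki67 was 257, 575 and 391 and Top2a 323, 723 and 523, log2 ratios of 1.16 and 1.16. Smc4, Jpt1 and Lbr, the lamin B receptor of the nuclear envelope, were the 3 lowest members in CD8 and in NK-receptor T cells. Jpt1 was 247, 302 and 292 in CD8 T cells. These 3 belong to 12 members that resting cells also use, and those 12 had a median of 0.78 in CD8 T cells, beside 0.86 for the 40 restricted to division.

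**Figure D2:**
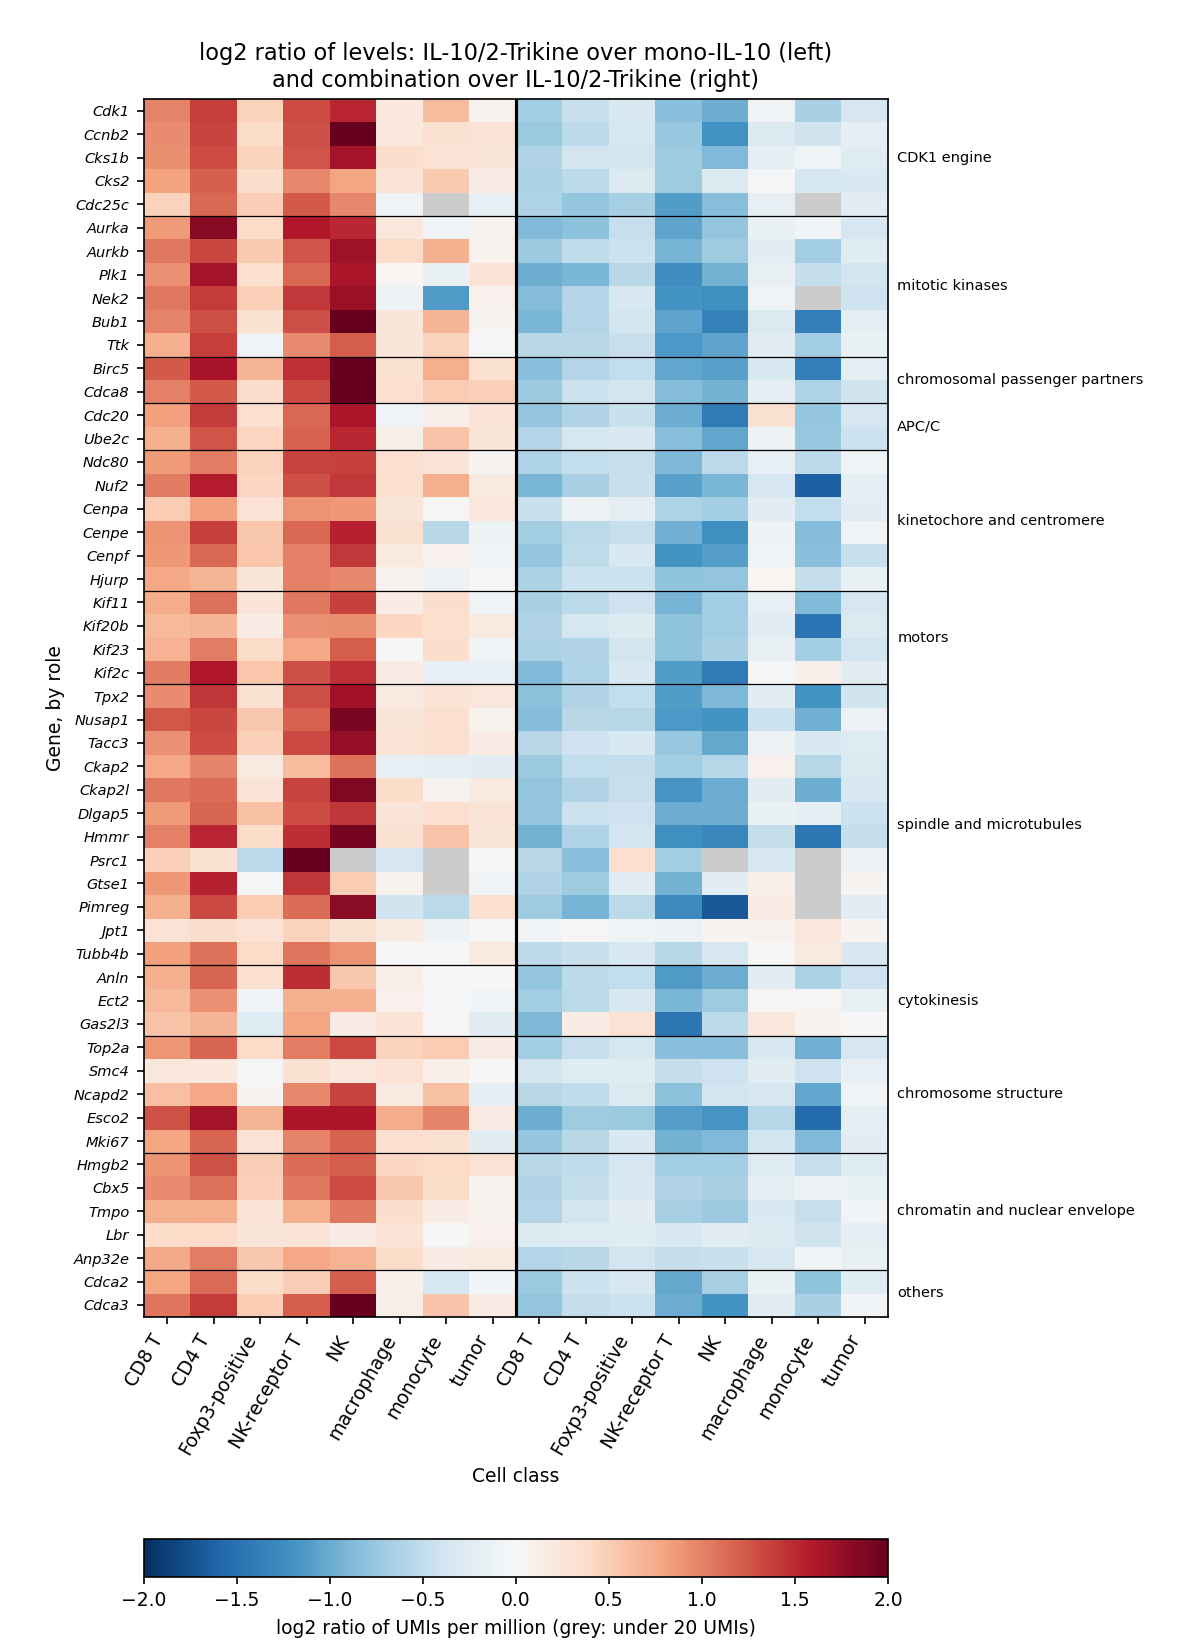
log2 ratio of each gene's CPM (color, blue lower and red higher, limits -2 and 2) for the 52 genes in rows, grouped by role, and the 8 cell classes in columns, with IL-10/2-Trikine over mono-IL-10 on the left and combination over IL-10/2-Trikine on the right. CD8, CD4, NK-receptor T and NK columns are mostly red on the left and blue on the right, while Jpt1, Lbr and Smc4 are pale throughout and grey cells had under 20 UMIs in the pair.

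Foxp3-positive cells, chosen by a UMI of the regulatory T cell factor Foxp3, gave a smaller difference. The class also held UMIs of CD8 genes, with Cd8b1 at 251, 175 and 175 CPM beside Cd4 at 199, 187 and 242, and 65.5, 71.6 and 77.6% of it lay in the cluster led by Foxp3. Only Esco2, Birc5 and Dlgap5, a spindle assembly factor, reached 1.5-fold (3 of 52, a share near the background of 5.31%), and the median log2 ratio was 0.37. Esco2 was 38.8, 61.9 and 37.0 CPM, Cdk1 135, 186 and 151 and Mki67 452, 553 and 449. Plk1 was 48.5, 60.7 and 41.2, Top2a 541, 711 and 556 and Cdc20 80.0, 101 and 73.6. The mono-IL-10 values of these genes in Foxp3-positive cells lay above those in CD8 and CD4 T cells of the same library, while the IL-10/2-Trikine values were close to them: for Cdk1 186 in Foxp3-positive, 170.3 in CD8 and 182 in CD4 T cells. Foxp3-positive cells were deeper, with medians of 9018, 8926 and 9109 UMIs. CD8 T cells had 4314.5, 4977 and 3654, and CD4 T cells 3997, 5918 and 5424. Called doublets made up 6.85, 21.9 and 0.335% of the Foxp3-positive class. The part of depth and of the gate in these levels was not tested. Psrc1, a microtubule-associated protein with few UMIs, was the lowest member (4.08, 2.83 and 3.57, log2 ratio -0.52). With each cell thinned to 1000 UMIs, so that deep cells do not weigh more, 23 of 50 genes reached 1.5-fold, and with scaling by the median of ratios 13 did. The share of all genes past 1.5-fold was not computed under these settings, so these counts were not read against a background.

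NK cells had lower levels than the T cell classes. Their gate left out any cell with a Cd3, Cd4, Cd8b1 or Foxp3 UMI. Median depths were 3781, 3420 and 3155 UMIs in NK cells and 4943, 7018.5 and 4343 in NK-receptor T cells. The part of the gate and of depth in the lower levels was not tested. In NK cells 45 of 51 genes with enough UMIs were at least 1.5-fold higher with the IL-10/2-Trikine (background 10.3%). The median log2 ratio was 1.36. Cluster 3 supplied 5.70, 16.3 and 13.7% of NK cells and cluster 6 supplied 93.8, 83.2 and 85.7%. Ccnb2 was 20.1, 102 and 43.9 CPM, Birc5 34.5, 173 and 81.3 and Bub1, a spindle checkpoint kinase, 8.63, 37.1 and 14.6, ratios of 5.05, 5.01 and 4.29. Mki67 was 138, 313 and 170.0, Top2a 157, 392 and 216 and Cdk1 29.2, 83.5 and 42.3. Plk1 (7.81, 24.2 and 12.5) and Cdc20 (13.1, 41.0 and 15.4) rested on 19 and 32 UMIs in the mono-IL-10 library, with a Plk1 ratio of 3.10 (counting interval 1.89 to 5.34). Gas2l3, a linker of actin and microtubules, Lbr and Smc4 were the lowest, with log2 ratios of 0.16, 0.17 and 0.21. With each cell thinned to 1000 UMIs only 36 genes had 20 UMIs, 25 of them reached 1.5-fold and the median was 0.98, beside 1.11 in CD8, 1.37 in CD4 and 1.48 in NK-receptor T cells, so no order of the classes was read.

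Macrophages gave 1 gene of 52 at 1.5-fold or more in the first comparison, Esco2 at 19.9, 33.3 and 22.5 CPM (background 9.39%), and a median log2 ratio of 0.24. Top2a was 225, 309 and 247, Mki67 224, 284 and 219.8 and Cdk1 75.6, 87.6 and 83.2. Plk1 (18.6, 19.2 and 17.4) and Cdc20 (38.1, 36.3 and 44.8) had first ratios of 1.03 (counting interval 0.874 to 1.22) and 0.954 (counting interval 0.846 to 1.07). Cbx5, the heterochromatin protein HP1 alpha, was among the 3 highest (49.7, 72.0 and 63.1), and Pimreg, Psrc1 and Ckap2 were the 3 lowest, with log2 ratios of -0.40, -0.33 and -0.16. T cell markers in macrophages, 10 of 10 at 3 or more UMIs, summed to 231, 594 and 339 CPM, against 7392, 6042 and 7318 in CD8 T cells, and moved in the same order as the G2/M sum; their part in the result was not tested. With the mixed C1qa and Cd3e cluster kept among the macrophages, 8 genes reached 1.5-fold and the median was 0.46, and with each cell thinned to 1000 UMIs 5 genes did.

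Monocytes had 6 of 49 genes at least 1.5-fold higher (background 6.19%) and a median of 0.29. Mki67 was 28.6, 35.3 and 19.2 CPM, Top2a 23.6, 33.6 and 17.3, Cdk1 5.39, 8.39 and 5.37, Plk1 1.75, 1.61 and 1.15 and Cdc20 3.89, 4.19 and 2.45, all below their levels in the other 7 classes. Esco2 (1.36, 2.68 and 0.920), Birc5 (9.28, 15.3 and 5.98) and Nuf2, a subunit of the NDC80 kinetochore complex (1.30, 2.14 and 0.690), were the 3 highest by ratio, and Nek2, a centrosome kinase, Cenpe and Pimreg the 3 lowest. The monocyte values changed with the clustering: at Leiden resolution 2 a cluster rich in Cd3e joined the class and the median became 1.98. No difference between libraries was read from monocytes.

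In tumor cells no member reached 1.5-fold (background 3.29%), and the median log2 ratio was 0.07. Cdk1 was 209, 219 and 174 CPM, Plk1 48.2, 58.2 and 45.4 and Cdc20 111, 132 and 105. Top2a was 717, 799 and 636, while Mki67 was 464, 402 and 349, a first ratio of 0.868 (counting interval 0.824 to 0.914). Cdca8 (borealin), a chromosomal passenger subunit, was highest by ratio at 221, 308 and 234, followed by Pimreg and Birc5, and Gas2l3, Ckap2 and Mki67 were lowest. Without called doublets the median was -0.02, on the other side of 0, and 0 genes reached 1.5-fold in either case. With each cell thinned to 1000 UMIs it was 0.19 and 5 genes reached 1.5-fold, so no direction was read for tumor cells in this comparison. Macrophage markers in the tumor class summed to 578, 183 and 361 and T cell markers to 459, 389 and 736 CPM.

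The second comparison addressed what differed when anti-PD-1 was added to the IL-10/2-Trikine. In CD8 T cells 41 of 52 genes were at least 1.5-fold lower in the combination (background 6.39%), with a median log2 ratio of -0.70. NK-receptor T cells gave 47 of 52 (background 6.72%) and -0.93, and NK cells 40 of 51 (background 7.62%) and -0.88. CD4 T cells were lower in 16 of 52 (background 6.18%), with a median of -0.52, and Foxp3-positive cells in 2, a share near the background (background 3.85%), with a median of -0.36. No member with 20 or more UMIs was 1.5-fold higher in any of the 8 classes. Macrophages and tumor cells had 0 members at 1.5-fold lower (background 6.7% and 2.96%), with medians of -0.19 and -0.23. Monocytes gave 25 of 47 (background 6.35%) at the low levels described above, and 4 without called doublets. Under the naming rule as first written the CD8 and CD4 counts were 15 and 26, and with each cell thinned to 1000 UMIs those of CD4, Foxp3-positive, NK, macrophage and tumor cells were 25, 15, 26 (of 40 with 20 UMIs), 4 and 8. Macrophages gave 19 with the mixed cluster kept. No share of all genes was computed for these alternative counts.

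Among role groups of 4 or more genes the mitotic kinases had the lowest medians, -0.87 in CD8, -1.10 in NK-receptor T and -1.01 in NK cells. The chromatin and nuclear envelope genes had -0.58, -0.60 and -0.65. Some smaller groups lay lower than the kinases. In NK cells the APC/C genes Cdc20 and Ube2c had -1.41 and -1.04. In NK-receptor T cells the cytokinesis genes Gas2l3, Anln and Ect2 had -1.45, -1.14 and -0.91. Plk1 was among the 3 lowest in CD8, CD4 and NK-receptor T cells, with second ratios of 0.511 (counting interval 0.471 to 0.553), 0.532 (counting interval 0.490 to 0.579) and 0.422 (counting interval 0.371 to 0.479). In CD8 T cells Plk1 in the combination (34.9) was close to the mono-IL-10 value (36.3), as was Mki67 (351 and 346), whereas in CD4 T cells Mki67 in the combination (391) stayed above mono-IL-10 (257). Esco2 and Hmmr, a spindle protein, were the other low members in CD8 T cells, with log2 ratios of -0.98 and -0.95. Pimreg was the lowest in CD4 (-0.93) and NK cells (-1.70), and Psrc1 the third of the lowest in CD4 T cells (-0.83). Cdc20 (-1.41) and the kinesin Kif2c (-1.40) followed in NK cells, and Gas2l3 was the lowest in NK-receptor T cells (-1.45). Jpt1 was highest in CD8 (-0.05), NK-receptor T (-0.12) and NK cells (0.06), followed by Lbr in each. In Foxp3-positive cells Esco2 (-0.74), Cdc25c, the phosphatase that activates CDK1 (-0.66), and Nusap1 (-0.58) were the lowest.

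To count cells by these transcripts, each cell with at least 1000 UMIs was thinned at random to 1000, and a cell was counted when it kept 3 or more UMIs of the 40 division-restricted genes. Among CD8 T cells the share was 13.7% (12.7 to 14.8), 36.1% (34.7 to 37.5) and 16.8% (15.7 to 17.9), with exact 95% binomial intervals that cover counting error only (579 of 4233, 1644 of 4558 and 711 of 4235 cells). Among CD4 T cells it was 9.94% (8.48 to 11.6), 36.0% (34.0 to 38.2) and 23.5% (22.0 to 25.0), and among NK-receptor T cells 10.5% (8.0 to 13.4), 40.1% (38.2 to 42.1) and 15.9% (14.2 to 17.8). The ratio of the first pair was 2.64 (2.42 to 2.87) in CD8, 3.63 (3.08 to 4.27) in CD4 and 3.84 (2.98 to 4.94) in NK-receptor T cells. For combination against IL-10/2-Trikine it was 0.465 (0.431 to 0.503), 0.651 (0.599 to 0.708) and 0.397 (0.352 to 0.447). The counting intervals of each pair did not overlap, but they take the cells of 1 library as the unit and leave out the spread between mice. No treatment difference was read from that gap. CD4 T cells had a larger share in the combination library than CD8 or NK-receptor T cells. The share ratios were not run under the naming rule as first written.

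Foxp3-positive cells had shares of 23.6% (19.5 to 28.1), 39.5% (36.7 to 42.3) and 32.3% (29.7 to 35.1), the highest of the T cell classes under mono-IL-10. The cells gated by Foxp3 were also deeper before thinning, as given above. Their second ratio, 0.819 (0.735 to 0.912), became 0.96 without called doublets, which leave shares of 21.6, 33.5 and 32.3%. NK cells had 2.95% (1.73 to 4.68), 12.8% (10.8 to 15.1) and 5.87% (4.63 to 7.33), and their first ratio of 4.35 (2.65 to 7.14) rests on 17 cells in the mono-IL-10 library and was 2.38 with a cut of 2 UMIs. Neutrophils, mature cells that do not divide, gave 5.63% (3.31 to 8.86), 9.11% (6.62 to 12.2) and 1.23% (0.0313 to 6.69), and 87.8% of those counted in the IL-10/2-Trikine library were called doublets; median depths in UMIs were 2065, 1326 and 1437 in neutrophils and 3781, 3420 and 3155 in NK cells. The mono-IL-10 share of NK cells lay below that of neutrophils and was not told apart from background. Called doublets made up 2.76% of NK cells and 20.3% of neutrophils in that library, so neutrophils were not a matched background. In the other 2 libraries the NK value lay above the neutrophil value with overlapping intervals. Without called doublets the shares were 2.86, 12.1 and 5.88% in NK cells and 4.26, 1.42 and 1.30% in neutrophils, and in the IL-10/2-Trikine library the intervals (10.1 to 14.3 and 0.461 to 3.27) no longer overlapped. Monocyte shares (1.68% (1.16 to 2.35), 1.32% (0.849 to 1.96) and 0.492% (0.225 to 0.933)) lay below those of neutrophils in all 3 libraries, and 66.7, 79.2 and 66.7% of the monocytes counted were called doublets. Macrophages had 17.4% (16.2 to 18.6), 24.0% (22.0 to 26.1) and 19.3% (18.1 to 20.6) and tumor cells 41.2% (36.7 to 45.9), 45.2% (41.7 to 48.7) and 38.0% (34.4 to 41.6), first ratios of 1.38 (1.24 to 1.54) and 1.10 (0.959 to 1.25). Cells too shallow to thin were left out: 341, 207 and 245 tumor cells, which left 461, 797 and 719 for these shares. For macrophages 462, 283 and 1102 were left out, which left 3956, 1779 and 4050. Before that step tumor cells came from cluster 16 (53.6% with Mki67, median 13239 UMIs) for 46.8, 59.9 and 60.7% and from cluster 18 (14.3%, median 826 UMIs) for 53.2, 40.1 and 39.3%. The tumor shares thus describe the deeper cells of the class only, and the clusters of those cells were not counted. Without thinning, the share with 3 or more UMIs was 33.6, 50.4 and 32.2% in CD8 T cells and 12.3, 21.8 and 13.1% in NK cells. Near the cut, 223, 245 and 247 CD8 T cells had exactly 2 UMIs and 103, 162 and 97 exactly 3.

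**Figure D3:**
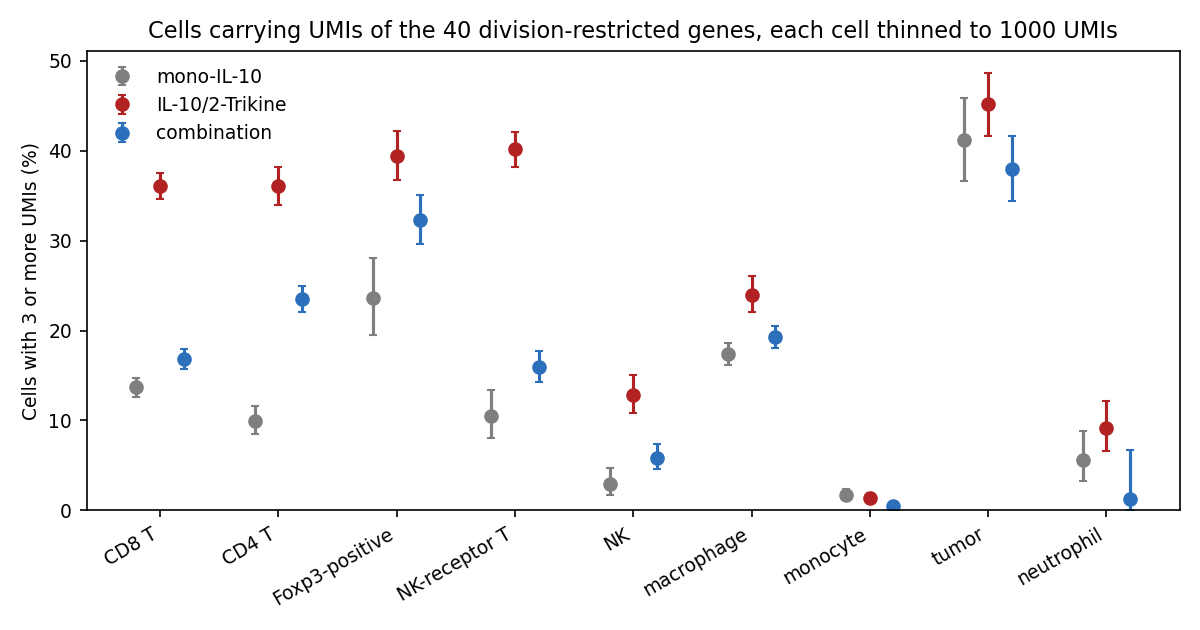
Share of cells (vertical axis, %) that kept 3 or more UMIs of the 40 division-restricted genes after thinning to 1000 UMIs, by cell class and for neutrophils as background, 1 point per library with its exact 95% binomial interval. CD8, CD4 and NK-receptor T cells reached 36.0 to 40.1% with the IL-10/2-Trikine, while macrophages and tumor cells differed less between the libraries. Cells too shallow to thin are not included.

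Within the counted cells, where the cut itself holds the level, the members differed less between libraries than over whole classes, and the combination was the lowest library in the T, NK and tumor classes. In CD8 T cells over the cut the 52 genes summed to 16760, 16935 and 15883 CPM, and in CD4 T cells to 14986, 15592 and 14587. The median log2 ratio of the genes in these cells was -0.04 and -0.12 in CD8 T cells for the first and second comparison, and -0.03 and -0.11 in CD4 T cells, against 0.85 and -0.70, and 1.18 and -0.52, over all cells of those classes. Because 40 of the genes chose the cells, the 12 others, which the cut did not use, were read apart, and their medians were 0.01 and -0.08 in CD8 and 0.01 and -0.12 in CD4 T cells. NK-receptor T cells were the T class with the lowest second value, -0.26, from sums of 17357, 16320 and 14355. Cells over the cut supplied 74.8, 88.8 and 76.8% of the members' UMIs in CD8 T cells and 65.0, 87.1 and 78.1% in CD4 T cells. Cells under the cut still carried 2448, 3544 and 2916 in CD8 T cells and 1173, 1372 and 1201 in monocytes. They too were higher with the IL-10/2-Trikine, with median log2 ratios for the first comparison of 0.68 in CD8, 0.95 in CD4 and 1.24 in NK-receptor T cells, and of 0.46, 0.72 and 0.55 for the 12 genes the cut did not use. In the second comparison the medians under the cut were -0.36, -0.37 and -0.56. A larger share of dividing cells and a higher level per cell were therefore not separated.

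In macrophages over the cut the sum was 12064, 11476 and 11882 and in tumor cells 19425, 19157 and 18100, so that a counted tumor cell carried more, and a counted macrophage less, of these transcripts in CPM than a counted T cell in all 3 libraries. S phase genes in the same cells summed to 5862, 6753 and 6127 in CD8 T cells, 4184, 5012 and 4458 in macrophages and 6094, 6323 and 6112 in tumor cells. Cells over the cut were deeper, with medians of 11256, 11218 and 10415 UMIs against 4055, 3468 and 3340 under it in CD8 T cells.

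**Figure D4:**
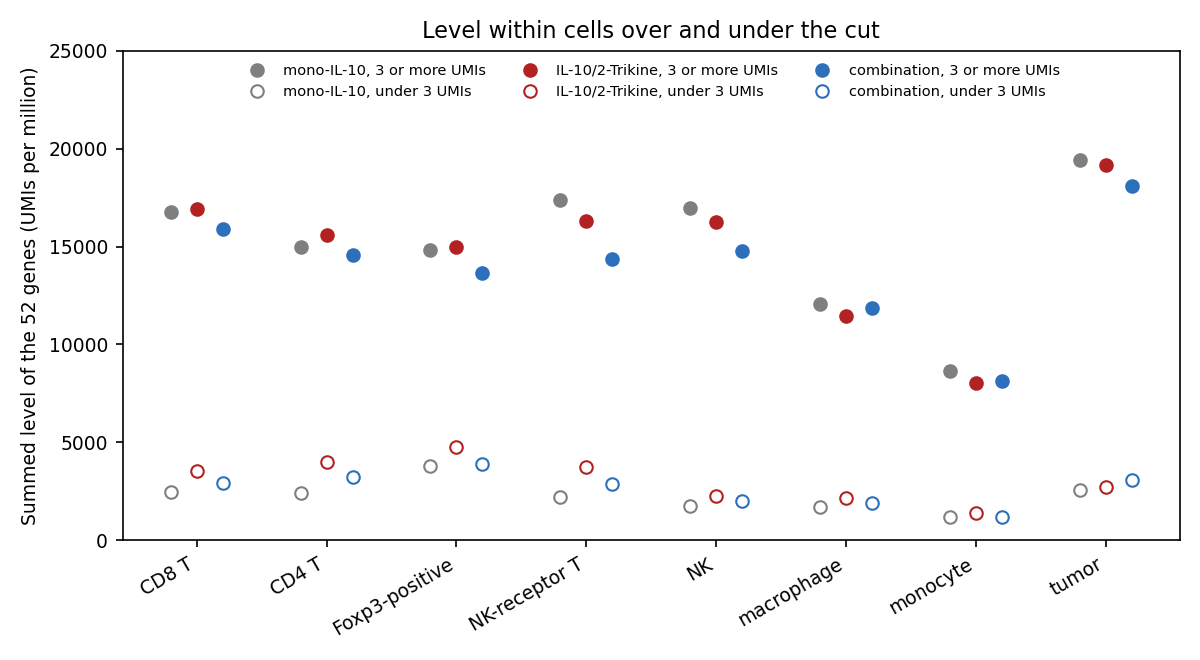
Summed level of the 52 genes in CPM (vertical axis, from 0) within cells over the cut of 3 UMIs (filled) and under it (open), by cell class and library. Filled points lie well above open ones in every class, at 16760, 16935 and 15883 in CD8 T cells, 12064, 11476 and 11882 in macrophages and 19425, 19157 and 18100 in tumor cells.

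Members that peak late, in mitosis itself (14 genes such as Plk1, Cdc20 and Cenpe), were set against 12 that accumulate from S phase and G2 (such as Esco2, Top2a and Cdk1). The ratio of their summed UMIs was 0.592, 0.629 and 0.604 in CD8 T cells and 0.487, 0.612 and 0.612 in CD4 T cells. It was 0.378, 0.527 and 0.434 in NK cells, 0.562, 0.500 and 0.542 in macrophages and 0.707, 0.787 and 0.730 in tumor cells, the highest of any class. Macrophages were the only class of these 5 in which the IL-10/2-Trikine library had the lowest ratio. The early list held Smc4, Tmpo, Cks1b and Ncapd2, listed here as also used outside division, while the late list held no gene so listed. Cenpa, a late gene, nevertheless stood at 38.6, 39.3 and 28.0 CPM in monocytes, above Mki67 there (28.6, 35.3 and 19.2). The ratio was not computed without Cenpa or the early genes named, so their part in the order of the libraries was not tested. Gas2l3, listed as division-restricted, was likewise higher in monocytes (19.0, 19.2 and 20.1) than in CD8 T cells (6.54, 9.73 and 5.23). In cells over the cut the ratios were 0.670, 0.644 and 0.661 in CD8 and 0.616, 0.623 and 0.650 in CD4 T cells, so that in CD8 T cells the IL-10/2-Trikine library went from the highest to the lowest. The sum of the G2/M genes over that of 44 S phase genes was 2.18, 2.27 and 2.10 in CD8 T cells and 1.90, 1.74 and 1.79 in macrophages. A further 53 division genes that are not members were counted in the same way, and 47 of 53 were 1.5-fold higher in CD8 T cells with the IL-10/2-Trikine, and 38 were 1.5-fold lower in the combination. Of the 44 S phase genes 29 and 17 were, and in NK-receptor T cells 33 and 17, beside 48 and 47 of the 52 G2/M genes.

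Tumor and CD8 T cells over the cut differed in which mitotic genes they carried, and mostly by similar factors in each library. The 40 division-restricted genes had chosen the cells of both classes, so these values are a description. Of the 52 genes, 19 were at least 1.5-fold higher in tumor cells in all 3 libraries and 3 at least 1.5-fold lower. The share of all genes past 1.5-fold between these classes was not computed, so the counts were not read against a background. The genes named here were chosen by these ratios after they were seen. Psrc1 stood, in CPM, at 42.2, 35.7 and 39.0 in tumor cells against 4.43, 3.93 and 3.89 in CD8 T cells, ratios of 9.52, 9.08 and 10.0. That CD8 T cell level, also used for macrophages below, rested on few UMIs, 53, 100 and 46 over the whole class. Gas2l3 gave ratios of 6.14, 5.64 and 8.16, and Aurka, at 315, 287 and 269 in tumor cells against 70.6, 66.0 and 55.4 in CD8 T cells, gave 4.46, 4.36 and 4.87. Ckap2l, a spindle protein, gave 3.74, 3.57 and 3.71, and Ect2, which helps to position the cleavage furrow, 3.23, 3.35 and 3.76. Tpx2, the activator of Aurora A at the spindle, gave 2.35, 2.48 and 2.48, and Ube2c 2.02, 2.51 and 2.13. On the other side Lbr (0.486, 0.466 and 0.459), Birc5 (0.579, 0.549 and 0.642) and Ccnb2 (0.551, 0.610 and 0.606) were lower in tumor cells. Mki67 and Plk1 differed little, with ratios of 0.941, 0.806 and 0.889 and 0.882, 1.03 and 1.15. The mono-IL-10 tumor class was shallow, with a median of 1365 UMIs per cell.

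Macrophages over the cut were set against CD8 T cells in the same way. The share of all genes past 1.5-fold was not computed for this pair either, so its counts were not ranked against those of tumor cells. Psrc1 (5.59, 3.95 and 4.06), Gas2l3 (2.43, 2.93 and 4.52), Kif23, a kinesin of the central spindle (2.41, 1.98 and 2.34), and Anln (1.92, 1.84 and 2.17) were the 4 genes at least 1.5-fold higher in all 3 libraries. Anp32e, a histone chaperone (0.406, 0.392 and 0.375), Lbr (0.493, 0.491 and 0.443), Hmgb2 (0.508, 0.490 and 0.500) and Cenpa, the centromeric histone H3 variant (0.503, 0.496 and 0.551), were at least 1.5-fold lower, as were Nusap1 (0.619, 0.452 and 0.483), Cks1b (0.655, 0.622 and 0.657) and Ube2c (0.537, 0.521 and 0.634), 7 in all. Ube2c thus lay on the other side of CD8 T cells than in tumor cells. Both comparisons use the same CD8 T cells and so are not independent.

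**Figure D5:**
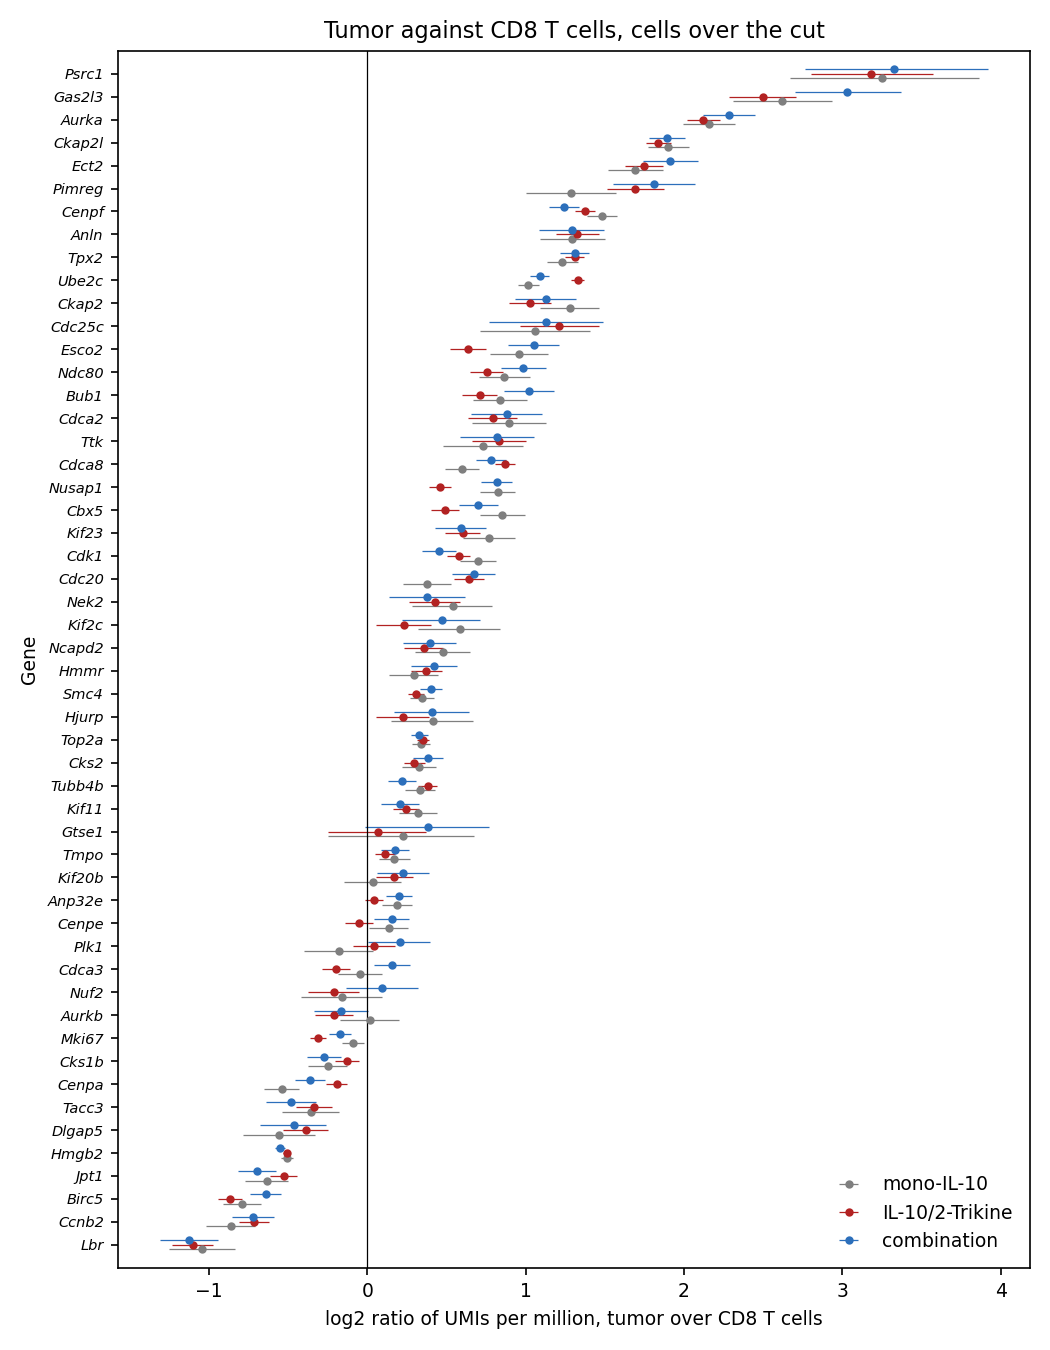
log2 ratio of CPM in tumor over CD8 T cells (horizontal axis) for the 52 genes (vertical axis, ordered by the mean over libraries), cells over the cut only, 1 point per library with its exact conditional interval, which covers counting error only. The 3 points of a gene lie close together, from Psrc1 at the top (ratios of 9.52, 9.08 and 10.0) to Lbr at the bottom (0.486, 0.466 and 0.459).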

How the data were processed

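Live CD45+ cells of 3 groups, 1 library each, were counted by the authors with Cell Ranger and deposited as UMI counts per gene and barcode, unnormalized and with empty droplets included. The file header names version 8.0.0 and the labels name mm10, whereas the study's methods name a later version, another build and the counting of intronic reads; no gene coordinates were taken from the files. Cells were barcodes with 200 or more genes and no more than 20% of UMIs from mitochondrial genes, and 1425273 to 1520583 barcodes were present per library. Cells of the 3 libraries were clustered together in scanpy 1.11.5 (2000 variable genes without division genes, 30 components, 20 neighbours, leidenalg 0.10.2 at resolution 1, 24 clusters) and named from fixed marker lists, with at least 3 markers needed. Clusters led by T or NK markers were gated cell by cell. Under the naming rule as written, 3 of them (16192 cells, with 8 to 10 of 10 T cell markers) would have stayed unnamed; they were gated after the clusters had been seen. Doublets were called per library with Scrublet and kept, and removed as an alternative.

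UMIs were summed per class and library and given per 1000000 UMIs (CPM). A ratio was read where the pair held 20 UMIs, and 1.5-fold was the size used for counts, with no test, since a group was 1 library. Intervals (95%: exact Poisson, Clopper-Pearson or conditional binomial) cover counting error only. For shares, each cell was thinned to 1000 UMIs, without cells below that depth. The functions were checked on simulated data. Some role groups gave a count and most gave members by name, and classes gave members among their highest and lowest. Mki67, Top2a, Cdk1, Plk1 and Cdc20 were followed through most classes. Genes contrasted between classes were chosen after their values were seen. The members and all lists were chosen with earlier results of these data known. Alternatives covered the gates, doublets, cell filter, scaling, thinning, pseudocount, clustering resolution, the mixed cluster, cluster names and the cut. Sums and intervals used scipy 1.17.1 and numpy 2.4.6 under Python 3.11.15. Promoter sequence was taken from RefSeq (GRCm38.p6).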

Additional observations from a re-analysis of the deposited data

How the results depend on the processing

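For 16 medians (8 classes, 2 comparisons) 113 of the alternative values stayed within the interval of the median over genes, 30 moved without a change of sign and 1 changed sign; 24 of the alternative counts of members past 1.5-fold moved by over 1.5 times. None of the 64 share ratios crossed 1 where its reported interval did not hold 1. A filter of 500 genes per cell and a pseudocount of 1 without a UMI filter moved none of the medians or counts. The share ratios were run only with cuts of 2 and 5 UMIs, without called doublets and with thinning to 2000 UMIs. They were thus not run under the other gates, clusters or cluster names. With 2 UMIs needed for a gate the medians became NK -1.02 (reported -0.88) in the second comparison. Without called doublets the medians became tumor -0.0191 (reported 0.07) in the first comparison and monocyte -0.14 (reported -0.63), tumor -0.17 (reported -0.23) in the second comparison, and counts past 1.5-fold became monocyte 11 (reported 6) in the first comparison and Foxp3-positive 4 (reported 2), macrophage 1 (reported 0), monocyte 4 (reported 25) in the second comparison, and share ratios became Foxp3-positive 0.964 (reported 0.819) in the second comparison. With scaling by the median of ratios the medians became CD8 0.99 (reported 0.85), CD4 1.35 (reported 1.18), Foxp3-positive 0.46 (reported 0.37), NK-receptor T 1.29 (reported 1.15) in the first comparison and tumor -0.31 (reported -0.23) in the second comparison, and counts past 1.5-fold became Foxp3-positive 13 (reported 3) in the first comparison. With each cell thinned to 1000 UMIs the medians became CD8 1.11 (reported 0.85), CD4 1.37 (reported 1.18), Foxp3-positive 0.54 (reported 0.37), NK-receptor T 1.48 (reported 1.15), NK 0.98 (reported 1.36), macrophage 0.37 (reported 0.24), monocyte 0.00329 (reported 0.29), tumor 0.19 (reported 0.07) in the first comparison and CD8 -1.03 (reported -0.70), CD4 -0.58 (reported -0.52), NK-receptor T -1.37 (reported -0.93), macrophage -0.27 (reported -0.19), monocyte -0.12 (reported -0.63) in the second comparison, and counts past 1.5-fold became Foxp3-positive 23 (reported 3), NK 25 (reported 45), macrophage 5 (reported 1), monocyte 3 (reported 6), tumor 5 (reported 0) in the first comparison and CD4 25 (reported 16), Foxp3-positive 15 (reported 2), NK 26 (reported 40), macrophage 4 (reported 0), monocyte 4 (reported 25), tumor 8 (reported 0) in the second comparison. At Leiden resolution 2 the medians became monocyte 1.98 (reported 0.29) in the first comparison and monocyte -1.79 (reported -0.63) in the second comparison, and counts past 1.5-fold became monocyte 48 (reported 6) in the first comparison and macrophage 1 (reported 0), monocyte 50 (reported 25) in the second comparison. With the mixed cluster kept the medians became macrophage 0.46 (reported 0.24) in the first comparison and macrophage -0.54 (reported -0.19) in the second comparison, and counts past 1.5-fold became macrophage 8 (reported 1) in the first comparison and macrophage 19 (reported 0) in the second comparison. With the cluster names of the rule as first written (the reported values use the looser rule, chosen after the clusters were seen, and this fit was then added for comparison) the medians became CD8 0.47 (reported 0.85), CD4 1.11 (reported 1.18), Foxp3-positive 0.30 (reported 0.37) in the first comparison and CD8 -0.52 (reported -0.70), CD4 -0.59 (reported -0.52) in the second comparison, and counts past 1.5-fold became CD8 10 (reported 45) in the first comparison and CD8 15 (reported 41), CD4 26 (reported 16) in the second comparison. With a cut of 2 UMIs the share ratios became CD8 2.19 (reported 2.64), CD4 2.79 (reported 3.63), NK 2.38 (reported 4.35) in the first comparison and CD8 0.546 (reported 0.465), NK-receptor T 0.450 (reported 0.397) in the second comparison. With a cut of 5 UMIs the share ratios became CD8 2.89 (reported 2.64), monocyte 0.422 (reported 0.789) in the first comparison and Foxp3-positive 0.733 (reported 0.819) in the second comparison. With thinning to 2000 UMIs the share ratios became CD8 2.33 (reported 2.64), CD4 2.71 (reported 3.63) in the first comparison and CD8 0.540 (reported 0.465), NK-receptor T 0.449 (reported 0.397) in the second comparison. The tumor median of the first comparison changed sign without doublets, from a value near 0. The cause was not tested in any of these cases, except that the clusters left out or joined fix which cells enter. No paired analysis was possible because each group is 1 library. In monocytes, a deep class with low levels of these genes, 47 to 49 of 52 had 20 UMIs.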

Other observations

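Of the 44 G2/M genes with a RefSeq promoter window, 10 held no CHR letters: Nusap1, Birc5, Cks2, Nuf2, Tacc3, Gtse1, Jpt1, Cenpe, Nek2 and Cbx5. Their log2 ratios of IL-10/2-Trikine over mono-IL-10 in CD8 T cells ran from 0.29 for Jpt1 to 1.25 for Nusap1 and 1.23 for Birc5, so the group held members near both ends of the list. The absence of the letters from a window of 300 bases says nothing of the factors that bind there.

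In neutrophils the 52 genes summed to 1901, 4160 and 2807 CPM in the mono-IL-10, IL-10/2-Trikine and combination libraries, from 350, 653 and 127 cells. T cell markers in the same cells summed to 867, 1522 and 1211 CPM, in the same order.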
